A study of Mus musculus with 16 samples.

Results

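The 35 genes described here are classical targets of interferon: sensors of foreign nucleic acid, the transcription factors that carry the signal, and antiviral effectors. They were chosen by gene symbol, as the rows of the deposited table whose symbol is one of the 35, out of 21924 protein-coding genes, and all 35 passed the filter on low values. They were measured by RNA sequencing in mouse germline stem (GS) cells, spermatogonial stem cells from testis that are kept in culture with the growth factors GDNF and FGF2 on a layer of mouse embryonic fibroblasts. There were 16 libraries in 8 groups of 2, and values below are given for both libraries of a group, replicate 1 first. In a line of mixed 129 x C57BL/6 background, cells labelled Hif1a KO and Hif1a wild type cells were each taken at 1% and at 20% oxygen. In a C57BL/6 line, cells labelled Top1mt KO and Top1mt wild type cells were taken at 1% oxygen. DBA/2 wild type cells were taken at 1% and at 20% oxygen. All cells were established at 20% oxygen, and the low oxygen was applied in gassed bags for 2 days per the series text. Names of the Top1mt line at 1% carry a mark of 2 days, and those of the Hif1a line at 1% a mark of 6 days. The meaning of these marks is not given, so the time at 1% may differ between lines.

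Several features of these groups limit them as models. The cells labelled Hif1a KO received an adenovirus carrying Cre recombinase on the day of the oxygen treatment, and no source states whether wild type cells received a virus, so the KO label and the virus cannot be told apart. Sample numbers in the library names differ between the oxygen levels in the Hif1a line and in DBA/2, and between the labels within a line too. No label states which libraries were sequenced together, so any sequencing set and oxygen cannot be told apart there. Nothing says that the libraries of a group came from separate cultures, so p-values measure the spread between libraries, which may be technical. Feeder fibroblasts, which also answer to interferon, were in every culture.

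Interferon-stimulated genes are kept low in most resting cells. Interferon binding to its receptors activates JAK kinases, which phosphorylate transcription factors such as STAT2. With IRF9, STAT2 is part of the ISGF3 complex, which binds the interferon-stimulated response element (ISRE) in target promoters, whereas interferon gamma acts through gamma-activated sites. The cytosolic RNA sensors RIG-I (Ddx58) and MDA5 (Ifih1) can start the same response through IRF3 and IRF7, and they are themselves interferon targets.

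Promoters were searched for the element that ISGF3 binds. RefSeq promoter windows (GRCm38.p6, 250 bases before to 50 bases after the start) were found for 26 of the 35 genes. An ISRE core, GAAANNGAAA or TTTCNNTTTC on the other strand, was present in 13 of the 26 windows (50%), against 4.03% of the 16522 genes with a window. A gamma-activated site, TTCNNNGAA, was present in 6 of 26 (23.1%), against 9.02% of genes. The core of the hypoxia response element, ACGTG or CACGT on the other strand, was present in 2 of 26 (7.69%, Oasl2 and Trim25), against 23.6% of genes. Stretches of 120 bases are shown for 4 of the genes that varied most across these cells and have an ISRE match upstream of the start, 5′ to 3′ on the strand of the gene, with the matches in capitals. Ifih1 has its match after the start and is not shown.
Gbp3, chr3:142559924-142560043, plus strand: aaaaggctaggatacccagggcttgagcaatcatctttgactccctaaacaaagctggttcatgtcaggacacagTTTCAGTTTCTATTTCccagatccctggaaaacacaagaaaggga
Isg15, chr4:156200832-156200951, minus strand: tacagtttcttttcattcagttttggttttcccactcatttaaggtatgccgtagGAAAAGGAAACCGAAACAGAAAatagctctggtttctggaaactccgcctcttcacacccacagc
Gbp2, chr3:142620543-142620662, plus strand: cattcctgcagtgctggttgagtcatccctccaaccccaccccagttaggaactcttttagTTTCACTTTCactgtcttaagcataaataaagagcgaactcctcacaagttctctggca
Rsad2, chr12:26456508-26456627, minus strand: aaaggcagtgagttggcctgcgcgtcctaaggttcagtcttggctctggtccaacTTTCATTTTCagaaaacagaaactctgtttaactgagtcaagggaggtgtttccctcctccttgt
Gbp3 has 2 overlapping matches and Isg15 has 3, while Gbp2 and Rsad2 have 1 each. The calls for these 4 genes were not alike. Gbp3 and Gbp2 fell at 1% oxygen in all 3 comparisons, Isg15 fell in both wild type lines and was not called in labelled Hif1a KO, and Rsad2 moved in opposite directions in DBA/2 cells and in cells labelled Hif1a KO.

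Depth ran from 11942104 to 25659895 reads on the genes of the table, so that 1 read stood for 0.0390 to 0.0837 CPM (reads scaled to a library total of 1000000). Libraries labelled Hif1a KO did not show less Hif1a RNA. Hif1a stood at 618 and 593 CPM in cells labelled Hif1a KO at 1%, against 251 and 251 CPM in Hif1a wild type at 1% (log2 fold change 1.27 ± 0.06, adjusted p = 1.0e-12). At 20% oxygen it stood at 139 and 142 CPM in the labelled KO cells, against 116 and 118 CPM in wild type. Reads summed per gene cannot show a lost exon, so the libraries are called labelled Hif1a KO throughout. Top1mt was lower in Top1mt KO, at 9.99 and 11 CPM, against 32.8 and 34.8 CPM in Top1mt wild type (-1.60 ± 0.07, adjusted p = 1.5e-12). Summed over 24 fibroblast markers, the labelled Hif1a KO libraries at 1% held 75968 and 74094 CPM, against 34164 and 42703 CPM in Hif1a wild type at 1%. Summed over 16 germ cell genes they held 1842 and 1948 CPM, against 4146 and 3873 CPM. In bulk RNA, a change in the share of a cell type and a change in RNA per cell cannot be told apart. Changes are tested on log2(CPM + 1) with limma over 14841 genes, and a gene is called at a Benjamini-Hochberg adjusted p under 0.05 over all of them. Folds of log2(CPM + 1) understate changes of low genes. Where groups are said not to overlap, this describes 2 libraries against 2, which can separate easily. The share of all genes without overlap was not computed, so it adds no support to a call.

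All 35 genes were detected in every group, at levels that differed widely between genes. Per kilobase of merged exons, the median over 16 libraries was 54.6 CPM per kb for Bst2, which encodes tetherin, a membrane anchor for budding virus. It was 41.8 CPM per kb for Ifi27, 35.3 CPM per kb for the guanylate-binding GTPase Gbp2 and 22.8 CPM per kb for Trim25, a ubiquitin ligase that acts on RIG-I. At the other end stood Ifit3 at 0.421, Ifi44 at 0.280 and the oligoadenylate synthetase Oas2 at 0.139 CPM per kb. Neighbours in this order overlapped in their ranges over libraries, such as Gbp2 (21.4 to 64.2 CPM per kb) and Trim25 (13.4 to 26.6 CPM per kb). Summed over the 35 genes, levels at 1% were 941 and 1066 CPM in labelled Hif1a KO, 957 and 917 CPM in Hif1a wild type, 692 and 682 CPM in Top1mt KO, 695 and 687 CPM in Top1mt wild type and 851 and 913 CPM in DBA/2. At 20% they were 1129 and 1158 CPM in labelled Hif1a KO, 1187 and 1216 CPM in Hif1a wild type and 1252 and 1311 CPM in DBA/2. The Top1mt line was not measured at 20%, so line and oxygen cannot be told apart in its sums. Genes with the highest CPM weigh most in all of these sums. On CPM all 3 groups at 20% lay above all 5 groups at 1%, without overlap. That order did not hold for the labelled Hif1a KO cells after rescaling, which was computed for these sums after the data were seen. Divided by median-of-ratios factors, the sum was 1167 and 1309 in labelled Hif1a KO at 1%, against 1086 and 1108 at 20%, and divided by TMM factors it was 1142 and 1283 at 1%, against 1091 and 1119 at 20%.

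**Figure D1:**
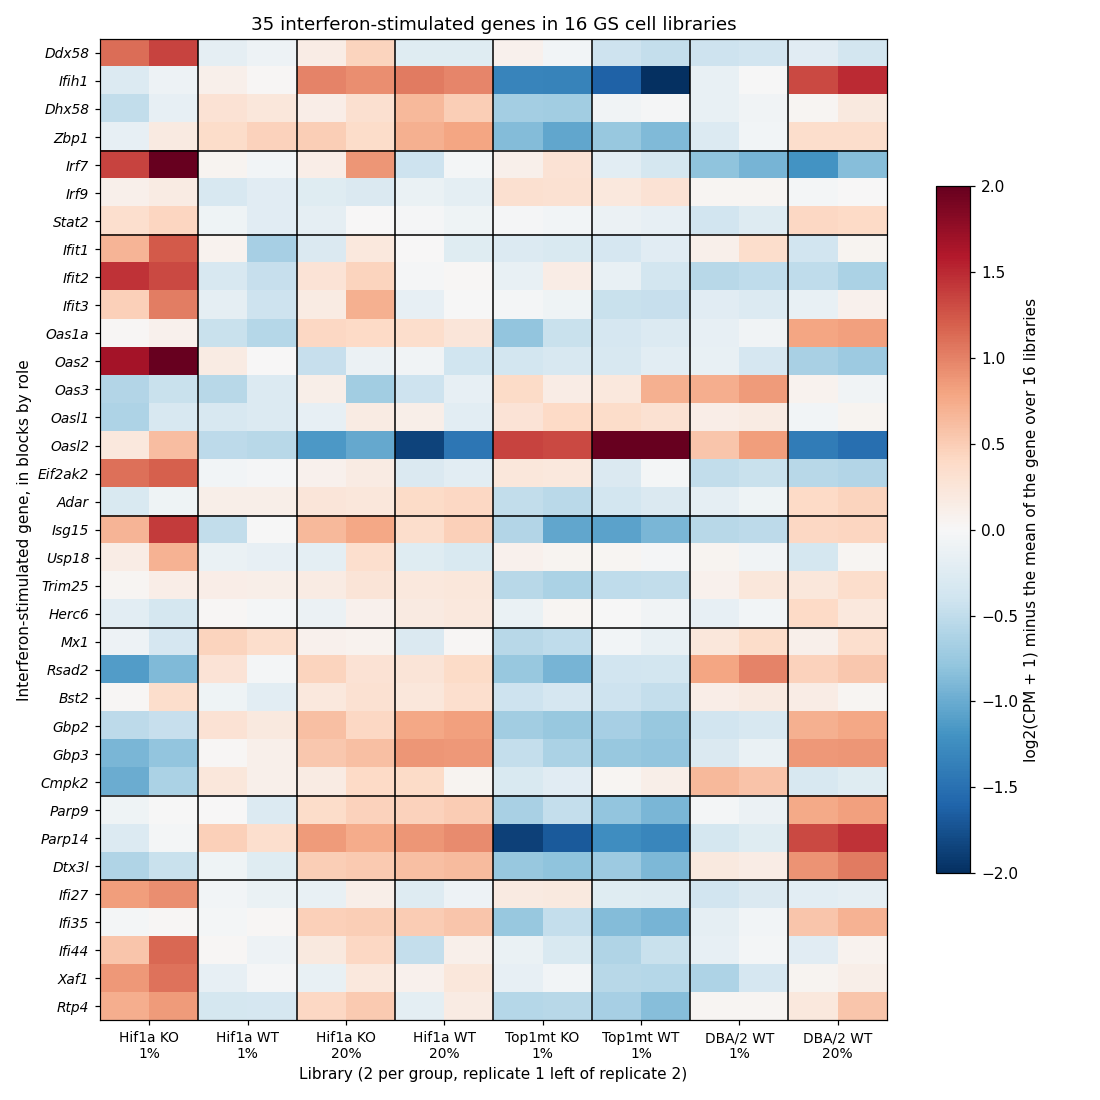
Each row is 1 of the 35 genes, in blocks by role, each column is 1 library, with groups named below, and colour is log2(CPM + 1) minus the mean of the gene over the 16 libraries, drawn up to 2 in either direction. Cells labelled Hif1a KO at 1% are red in many rows from Irf7 to Rtp4 and blue for Rsad2, Cmpk2, Gbp2 and Gbp3, while both Top1mt groups are blue for Ifih1 and Parp14 and red for Oasl2.

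Genes also differed in how far they ranged across the 8 groups. The ratio of the highest to the lowest group mean was 33.8 for Oas2, 20.1 for Oasl2, 17.2 for the transcription factor Irf7, 11.3 for Ifih1 and 9.56 for Parp14. It was 1.53 for Irf9 and 1.56 for Herc6. Oas2 rests on few reads outside 1 group, since its group mean was 0.202 CPM in DBA/2 at 20%. Rsad2 and Cmpk2 lie 12.8 kb apart on chromosome 12 and are transcribed away from each other, so their values are given side by side below. Irf7, Adar and Rtp4 overlap other coding genes on the opposite strand (Phrf1, Chrnb2 and Masp1) and Irf9 overlaps Rnf31 on the same strand, so reads of these 4 genes may be shared with their partners.

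The first comparison asked how these genes differed between oxygen levels in DBA/2 wild type cells. These carry no KO label, and no source states whether they received a virus. At 1% against 20% oxygen, 14 of the 35 genes fell and 5 rose, where 25.5% of all genes tested fell and 31.8% rose (57.4% in either direction). The median log2 fold change was -0.14 over the 35 genes and 0.04 over all genes. The genes that fell included the RNA sensor Ifih1, all 3 genes of the ADP-ribosylation group, both guanylate-binding proteins, Isg15 and Stat2, and the genes that rose were Oasl2, Oas3, Oas2, Rsad2 and Cmpk2. Fibroblast markers summed to 8868 and 7939.9 CPM in DBA/2 at 1%, against 9919.9 and 7906 CPM at 20%, with overlap, and 5 of the 24 rose and 13 fell. Germ cell genes summed to 4777 and 4745 CPM at 1%, against 5476 and 5658 CPM at 20%, without overlap, and 3 of the 16 rose and 10 fell. The part of both in the values below was not tested. Without replicate 2 at 1%, 3 of the 35 genes rose.

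Among sensors, Ifih1 (chr2:62595798-62646255, minus strand, mm10) had 16.8 and 18.7 CPM in DBA/2 cells at 1%, against 48.5 and 54.4 CPM at 20% (-1.49 ± 0.12, adjusted p = 2.6e-09). The groups lay far apart. Zbp1, which binds Z-form nucleic acid and can start necroptosis, had 16.7 and 19.6 CPM at 1%, against 26.4 and 26.3 CPM at 20% (-0.52 ± 0.11, adjusted p = 0.00036). Ddx58, the other RNA sensor, was not called, with 12.3 and 12.6 CPM at 1%, against 14.2 and 12.8 CPM at 20% (-0.11 ± 0.11, adjusted p = 0.41). Stat2, a subunit of ISGF3, fell to 34.4 and 37.5 CPM at 1%, against 60.2 and 59.9 CPM at 20% (-0.73 ± 0.07, adjusted p = 5.9e-08), without overlap.

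Parp14, Parp9 and Dtx3l encode ADP-ribosyltransferases and a ubiquitin ligase that pairs with PARP9, and they lie together on chromosome 16. Parp14 (chr16:35832874-35871544, minus strand) had 32.7 and 35.1 CPM at 1%, against 106 and 115 CPM at 20% (-1.68 ± 0.08, adjusted p = 3.9e-12), the lowest log2 fold change of the 35 in this comparison. Dtx3l had 44.0 and 42.5 CPM at 1%, against 72.6 and 79.8 CPM at 20% (-0.80 ± 0.08, adjusted p = 3.3e-08). Parp9 had 33.6 and 31.8 CPM at 1%, against 59.1 and 61.6 CPM at 20% (-0.86 ± 0.09, adjusted p = 6.0e-08). None of the 3 overlapped between the oxygen levels. Parp9 and Dtx3l overlap by 682 bases on opposite strands, and the strand setting of the counting is not stated, so their reads may be shared there.

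The GTPase Gbp2, whose promoter is shown above, had 69.8 and 73.0 CPM at 1%, against 151 and 157 CPM at 20% (-1.10 ± 0.06, adjusted p = 1.3e-11). Its neighbour Gbp3 had 46.6 and 52.2 CPM at 1%, against 106 and 106 CPM at 20% (-1.09 ± 0.07, adjusted p = 1.0e-10). The ubiquitin-like modifier Isg15 had 6.24 and 6.39 CPM at 1%, against 13.2 and 13.4 CPM at 20% (-0.97 ± 0.19, adjusted p = 0.00021). For all 3 genes both libraries at 1% lay below both at 20%. Lower calls of smaller size were made for Oas1a (-0.92 ± 0.13, adjusted p = 4.5e-06), Ifi35 (-0.74 ± 0.09, adjusted p = 8.8e-07), the RNA-editing enzyme Adar (-0.56 ± 0.06, adjusted p = 2.3e-07) and Xaf1 (-0.56 ± 0.14, adjusted p = 0.0018). Herc6, the main ISG15 ligase of mice, was also lower (-0.41 ± 0.11, adjusted p = 0.0042), but not without replicate 1 at 20% (adjusted p = 0.067).

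The opposite movement was clearest for Oasl2 (chr5:114896936-114912234, plus strand), a 2'-5' oligoadenylate synthetase-like protein. It had 15.6 and 19.3 CPM at 1%, against 3.31 and 2.99 CPM at 20% (2.15 ± 0.14, adjusted p = 2.2e-10). Both libraries at 1% were several-fold above both at 20%. Oasl1, its neighbour 11 kb away, had 5.99 and 6.17 CPM at 1%, against 5.17 and 5.63 CPM at 20% (0.15 ± 0.14, adjusted p = 0.40), and was not called. Cmpk2, a mitochondrial nucleotide kinase, had 9.88 and 9.30 CPM at 1%, against 4.56 and 4.86 CPM at 20% (0.89 ± 0.14, adjusted p = 2.2e-05), with no overlap. Rsad2, the antiviral enzyme viperin, had 61.7 and 71.7 CPM at 1%, against 49.4 and 52.2 CPM at 20% (0.38 ± 0.10, adjusted p = 0.0034). The Rsad2 call was lost without replicate 2 at 1% (adjusted p = 0.070). Oas3, which makes the activator of RNase L, had 5.64 and 6.26 CPM at 1%, against 3.21 and 2.82 CPM at 20% (0.79 ± 0.21, adjusted p = 0.0033). Oas2 passed narrowly (0.45 ± 0.19, adjusted p = 0.047) and no longer did when any of the 4 libraries was left out.

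**Figure D2:**
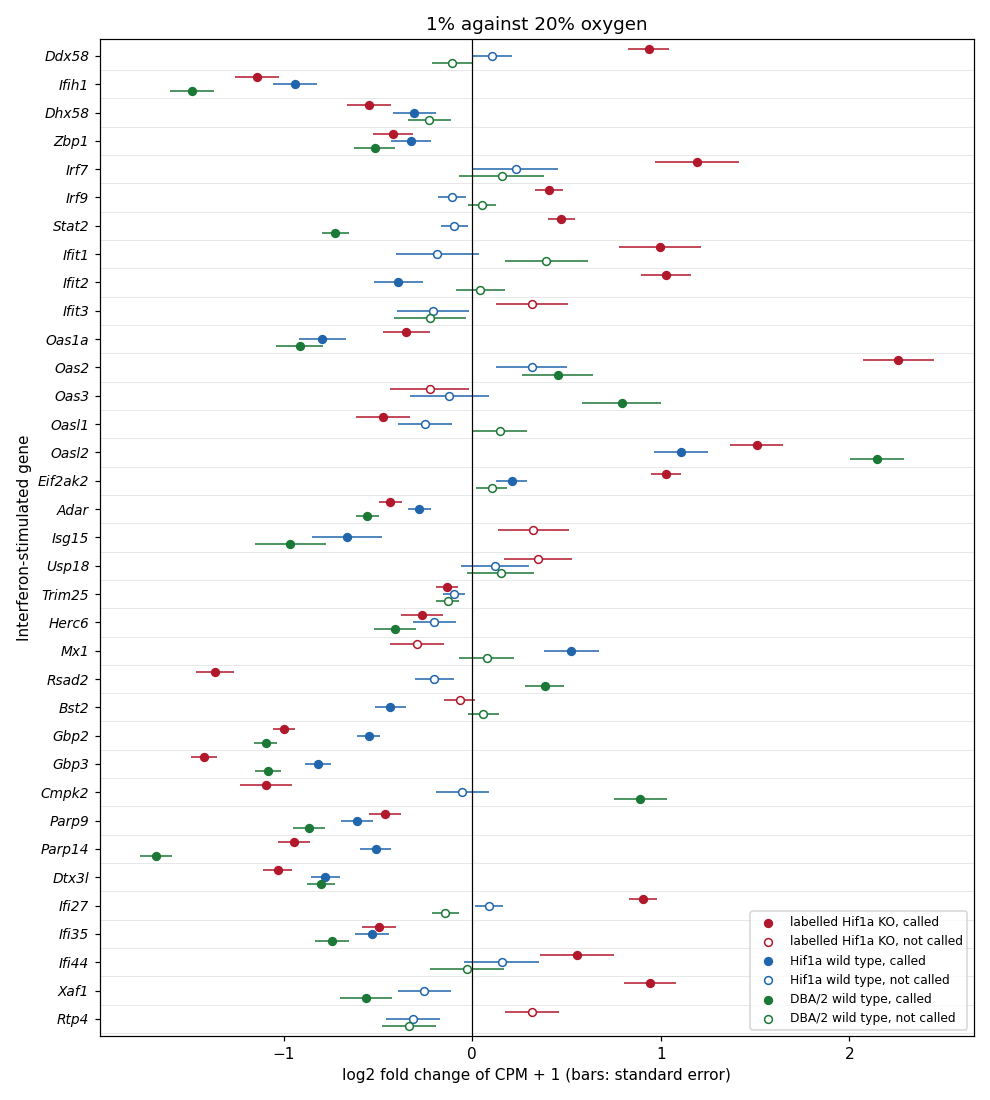
Points are log2 fold changes of CPM + 1 at 1% against 20% oxygen and bars are standard errors, for labelled Hif1a KO, Hif1a wild type and DBA/2 wild type, with filled points for called genes. Ifih1, Gbp2, Gbp3, Dtx3l and Parp14 lie left of 0 in all 3 and Oasl2 lies right of 0 in all 3, while Oas2, Irf7, Ddx58, Ifit2 and Eif2ak2 lie far to the right in labelled Hif1a KO.

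In Hif1a wild type cells the same question gave 14 genes lower and 3 higher at 1%, where 34.6% of all genes fell and 18.4% rose (53.1% in either direction). The median log2 fold change was -0.21 over the 35 genes and -0.09 over all genes. With CPM rescaled by median-of-ratios factors, which centre all genes, 12 fell and 4 rose, and the share of higher genes among all called genes moved to 49.7%, against 34.7% on CPM. Here fibroblast markers moved as well, with 34164 and 42703 CPM in sum at 1%, against 13259 and 14325 CPM at 20%, and 19 of 24 rose and 2 fell. Germ cell genes summed to 4146 and 3873 CPM at 1%, against 4549.7 and 4474 CPM at 20%, and 9 of 16 fell and 2 rose. The part of these shifts in the values below was not tested.

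Ifih1 had 20.3 and 19.0 CPM in Hif1a wild type at 1%, against 39.3 and 38.0 CPM at 20% (-0.94 ± 0.12, adjusted p = 1.5e-06). Gbp3 had 57.9 and 61.1 CPM at 1%, against 106 and 105 CPM at 20% (-0.82 ± 0.07, adjusted p = 6.4e-09). Gbp2 had 112 and 105 CPM at 1%, against 156 and 161 CPM at 20% (-0.55 ± 0.06, adjusted p = 2.8e-07). All 3 fell without overlap. The ADP-ribosylation genes fell too, with Dtx3l at 36.0 and 32.3 CPM at 1%, against 58.9 and 59.6 CPM at 20% (-0.78 ± 0.08, adjusted p = 6.1e-08). Parp14 had 58.7 and 53.0 CPM at 1%, against 78.2 and 81.9 CPM at 20% (-0.51 ± 0.08, adjusted p = 4.4e-05). Parp9 had log2 fold change -0.61 ± 0.09, adjusted p = 6.6e-06, Ifi35 -0.53 ± 0.09, adjusted p = 5.5e-05 and Oas1a -0.80 ± 0.13, adjusted p = 2.9e-05.

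Oasl2 rose again in Hif1a wild type, to 6.85 and 6.73 CPM at 1%, against 2.14 and 3.16 CPM at 20% (1.11 ± 0.14, adjusted p = 2.4e-06). The kinase PKR (Eif2ak2), which halts translation on double-stranded RNA, was called higher at 25.9 and 26.4 CPM at 1%, against 22.0 and 23.1 CPM at 20% (0.21 ± 0.08, adjusted p = 0.036), but not when any of the 4 libraries was left out. Mx1, a dynamin-like GTPase, had 3.79 and 3.49 CPM at 1%, against 1.90 and 2.58 CPM at 20% (0.53 ± 0.15, adjusted p = 0.0050), and lost the call without replicate 1 at 20% (adjusted p = 0.091). Isg15 had 6.56 and 9.61 CPM at 1%, against 12.6 and 13.8 CPM at 20% (-0.67 ± 0.19, adjusted p = 0.0057), and without replicate 1 at 1% the log2 fold change was -0.42 (adjusted p = 0.10). Tetherin (Bst2) had 43.2 and 39.6 CPM at 1%, against 53.9 and 58.7 CPM at 20% (-0.44 ± 0.08, adjusted p = 0.00021), without overlap. Adar was also lower (-0.28 ± 0.06, adjusted p = 0.00067). Lower calls of Ifit2, Dhx58 and Zbp1 were each lost without 1 or more single libraries, and 1 gene was higher without replicate 1 at 20%.

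In cells labelled Hif1a KO the genes split. At 1% against 20% oxygen, 16 fell and 12 rose, where 54.7% of all genes fell and 25.2% rose (79.9% in either direction). The median log2 fold change was -0.13 over the 35 genes and -0.29 over all genes. Centring all genes by median-of-ratios factors moved the median of all genes to 0.02, and then 18 of the 35 rose and 7 fell. The share of higher genes among all called genes was then 53.0%, against 31.6% on CPM. The 7 that fell under both scalings were Ifih1, Gbp2, Gbp3, Parp14, Dtx3l, Rsad2 and Cmpk2, and the 12 that rose on CPM rose under both. Fibroblast markers summed to 75968 and 74094 CPM in labelled Hif1a KO at 1%, against 19246 and 22771 CPM at 20%, and 23 of 24 rose and 0 fell. Germ cell genes summed to 1842 and 1948 CPM at 1%, against 4051 and 3797 CPM at 20%, and 16 of 16 fell. The part of these shifts was not tested.

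The transcription factors all rose. Irf7, the factor that amplifies the type I interferon response, had 6.99 and 11.8 CPM in labelled Hif1a KO at 1%, against 2.43 and 4.74 CPM at 20% (1.19 ± 0.22, adjusted p = 6.9e-05). Stat2 had 56.9 and 60.9 CPM at 1%, against 39.6 and 45.0 CPM at 20% (0.47 ± 0.07, adjusted p = 5.5e-06). Irf9 had 25.3 and 26.5 CPM at 1%, against 19.7 and 18.9 CPM at 20% (0.41 ± 0.07, adjusted p = 4.9e-05). None of the 3 overlapped, and on the rescaled values the log2 fold changes were 1.51, 0.83 and 0.76. RIG-I (Ddx58) rose to 37.5 and 44.1 CPM at 1%, against 18.6 and 23.3 CPM at 20% (0.93 ± 0.11, adjusted p = 1.1e-07), while MDA5 (Ifih1) fell to 15.4 and 17.4 CPM, against 38.1 and 36.5 CPM (-1.14 ± 0.12, adjusted p = 2.2e-08). The 2 RNA sensors thus went opposite ways in the same cells.

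Among effectors, Oas2 had 5.13 and 8.50 CPM in labelled Hif1a KO at 1%, against 0.419 and 0.790 CPM at 20% (2.26 ± 0.19, adjusted p = 1.1e-09), the largest rise among the 35 genes in this comparison. Ifit2, which binds foreign RNA, had 17.4 and 15.9 CPM at 1%, against 7.12 and 8.22 CPM at 20% (1.03 ± 0.13, adjusted p = 5.1e-07). Eif2ak2 had 59.0 and 63.2 CPM at 1%, against 28.7 and 30.2 CPM at 20% (1.03 ± 0.08, adjusted p = 4.3e-10). The libraries at 1% lay above those at 20% for all 3. Oasl2 (1.51 ± 0.14, adjusted p = 6.7e-09), Ifit1 (1.00 ± 0.22, adjusted p = 0.00036), Xaf1 (0.94 ± 0.14, adjusted p = 3.5e-06), a partner of the apoptosis inhibitor XIAP, and the mitochondrial protein gene Ifi27 (0.91 ± 0.07, adjusted p = 6.4e-10) rose as well. Falls of similar or larger size stood beside these rises. Rsad2 fell to 15.8 and 18.9 CPM at 1%, against 48.6 and 43.7 CPM at 20% (-1.36 ± 0.10, adjusted p = 2.2e-10). Its neighbour Cmpk2 fell to 2.50 and 3.47 CPM, against 6.78 and 8.17 CPM (-1.09 ± 0.14, adjusted p = 5.5e-07). Gbp3 fell to 29.8 and 32.8 CPM, against 83.9 and 86.9 CPM (-1.42 ± 0.07, adjusted p = 3.5e-13). These 3 again showed no overlap.

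Gbp2 (-1.0 ± 0.06, adjusted p = 8.1e-12), Parp14 (-0.95 ± 0.08, adjusted p = 3.1e-09) and Dtx3l (-1.03 ± 0.08, adjusted p = 1.6e-10) fell in labelled Hif1a KO too, and their log2 fold changes were smaller on the rescaled values, at -0.64, -0.59 and -0.68. Lower calls on CPM for Oas1a, Oasl1, Ifi35, Parp9, Zbp1, Adar and Herc6 were not made under either rescaling, edgeR or DESeq2. Isg15, not called on CPM (0.32 ± 0.19, adjusted p = 0.12), was higher on the rescaled values (0.67). Trim25 turned from lower on CPM (-0.13 ± 0.06, adjusted p = 0.044) to higher on the rescaled values (0.23). Ifi44 was called higher (0.55 ± 0.20, adjusted p = 0.015), but its log2 fold change was 0.26 without replicate 2 at 1% (adjusted p = 0.29).

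The 3 oxygen comparisons share no library, so their calls can be set against each other, though the time at 1% may differ between the lines. On CPM, 10 of the 35 genes (28.6%) fell at 1% in all 3, against 13.4% of all genes tested: Oas1a, Ifih1, Ifi35, Parp9, Parp14, Dtx3l, Zbp1, Adar, Gbp2 and Gbp3. After either rescaling, and with edgeR and DESeq2 on the recovered reads, 5 remained, namely Ifih1, Parp14, Dtx3l, Gbp2 and Gbp3, where between 8.24% and 10.3% of all genes did so. Oasl2 was the single gene of the 35 that rose in all 3 (2.86%), against 6.46% of all genes, and it did so under CPM and each of these 4 settings.

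**Figure D3:**
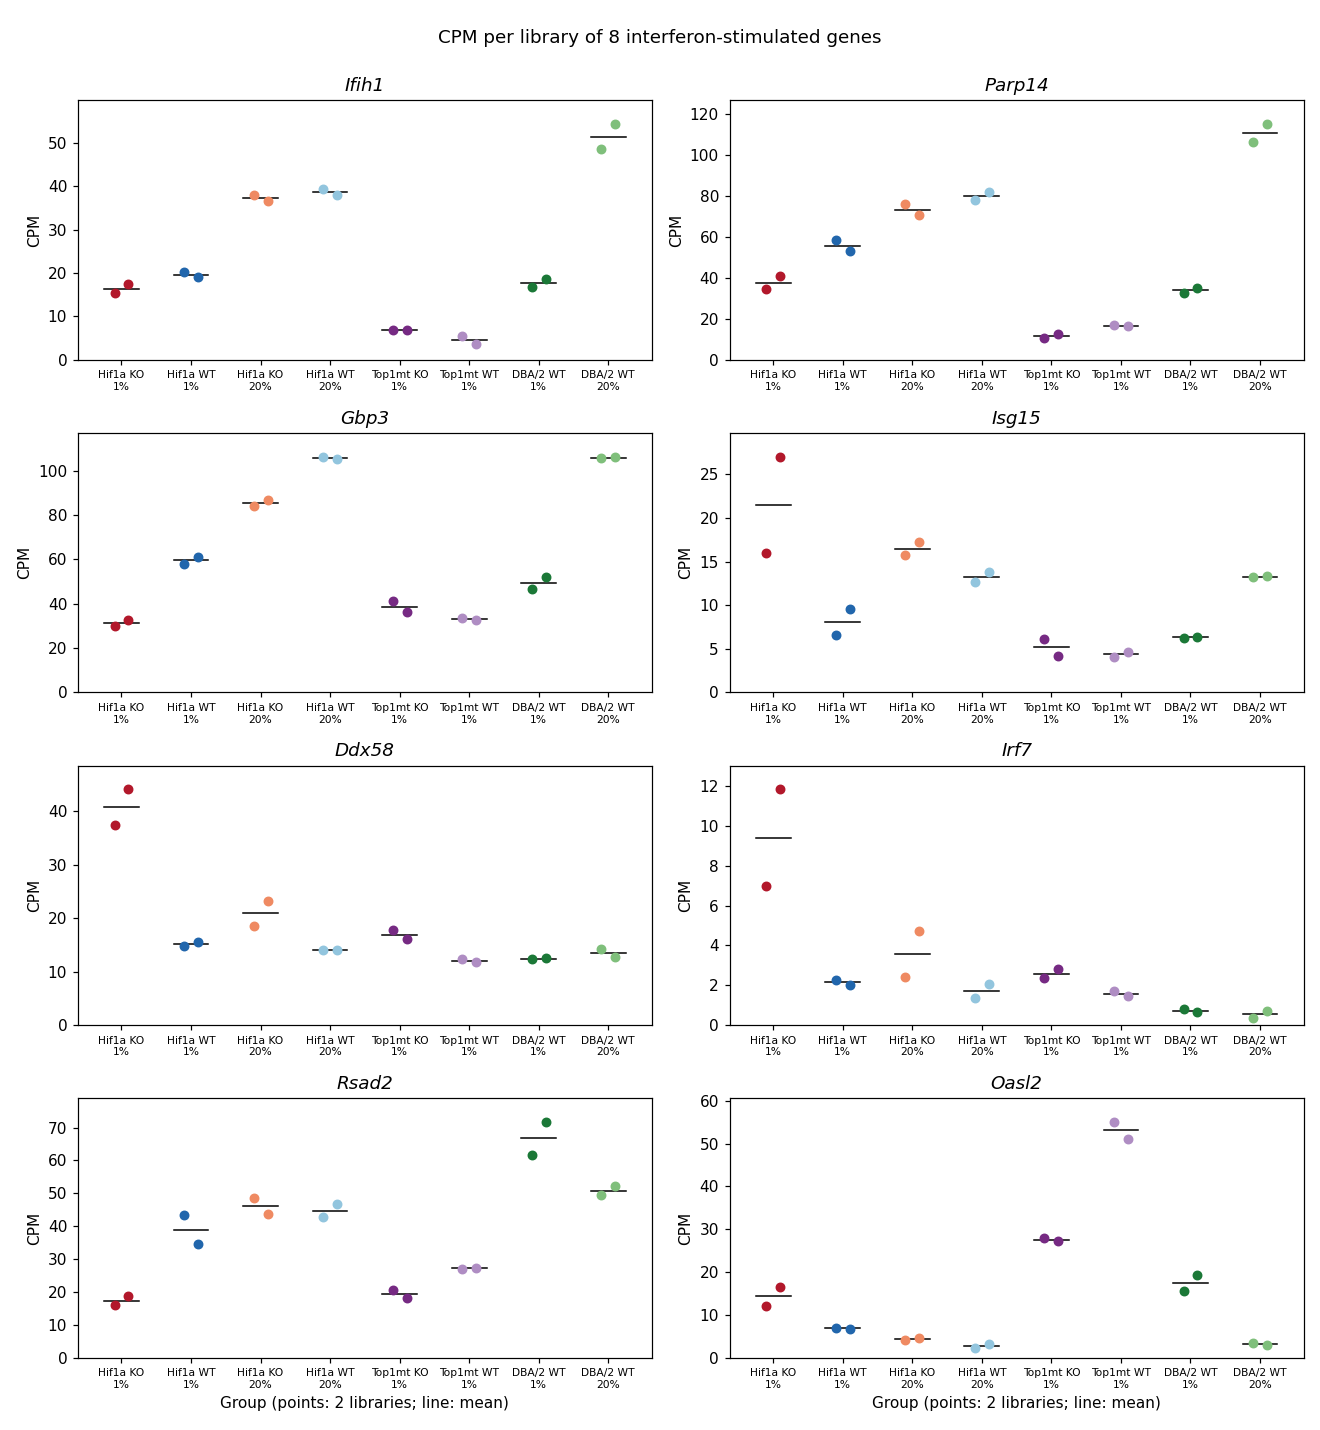
Points are CPM in single libraries and lines are group means for 8 genes, with the 8 groups along the horizontal axis and a vertical axis from 0. Ifih1, Parp14 and Gbp3 are lower at 1% than at 20% in each line measured at both, Oasl2 is higher, and Ddx58 and Irf7 are highest in labelled Hif1a KO at 1%.

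The oxygen responses of the 2 wild type lines measured at both levels were set against each other. The difference of responses, Hif1a wild type minus DBA/2, was called for 11 of the 35 genes, 6 higher and 5 lower, where 15.1% of all genes were higher and 30.9% lower (46.0% in either direction). After rescaling, 10 were higher and 5 lower, and the share of higher genes among all called genes was 51.5%, against 32.9% on CPM. Without replicate 1 of DBA/2 at 1%, 3 were higher. Parp14 fell less in Hif1a wild type than in DBA/2 (difference 1.17 ± 0.12, adjusted p = 2.6e-07), as did Gbp2 (0.55 ± 0.08, adjusted p = 3.5e-05). Stat2 differed by 0.63 ± 0.10, adjusted p = 5.5e-05. It fell in DBA/2 and was not called in Hif1a wild type. Oasl2 rose less in Hif1a wild type (-1.04 ± 0.20, adjusted p = 0.00034). Cmpk2 (-0.94 ± 0.20, adjusted p = 0.00073) and Rsad2 (-0.58 ± 0.14, adjusted p = 0.0028) differed in the same direction. Strain background, any sequencing set and any difference in treatment time cannot be told apart in these differences.

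The next question was how cells labelled Hif1a KO differed from Hif1a wild type at 1% oxygen. Here 18 of the 35 genes were higher and 11 lower, where 28.3% of all genes were higher and 49.1% lower (77.4% in either direction). The median log2 fold change was 0.34 over the 35 genes and -0.21 over all genes. On values rescaled by median-of-ratios factors, whose median over all genes was 0.03, 21 were higher and 7 lower. The share of higher genes among all called genes was then 54.2%, against 36.6% on CPM. All 3 transcription factors, 7 of 10 RNA-directed effectors and 4 of 5 of the other induced proteins were higher, and 5 of 6 in the group of GTPases and other antiviral effectors were lower. All 24 fibroblast markers were higher, all 16 germ cell genes were lower, and 4 of 9 tested leukocyte markers were higher and 0 lower. Their part in the values below was not tested.

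Isg15 (chr4:156199424-156200818, minus strand) had 16 and 27.0 CPM in labelled Hif1a KO, against 6.56 and 9.61 CPM in Hif1a wild type (1.29 ± 0.19, adjusted p = 3.4e-06). Irf7 (chr7:141262706-141266481, minus strand) had 6.99 and 11.8 CPM in labelled KO, against 2.26 and 2.02 CPM in wild type (1.69 ± 0.22, adjusted p = 1.0e-06). Ddx58 (chr4:40203773-40239828, minus strand) had 37.5 and 44.1 CPM in labelled KO, against 14.7 and 15.5 CPM in wild type (1.37 ± 0.11, adjusted p = 5.1e-10). Both labelled KO libraries lay above both wild type libraries for all 3, with replicate 2 of the KO label the higher one each time. Ifit2 had 17.4 and 15.9 CPM in labelled KO, against 4.37 and 3.90 CPM in wild type (1.78 ± 0.13, adjusted p = 2.4e-10). Ifit1 had 8.40 and 12.6 CPM in labelled KO, against 5.10 and 2.68 CPM in wild type (1.25 ± 0.22, adjusted p = 3.3e-05). Oas2 had 5.13 and 8.50 CPM in labelled KO, against 1.17 and 0.961 CPM in wild type (1.89 ± 0.19, adjusted p = 1.8e-08). Again the labels did not overlap, and the log2 fold change of Oas2 was the largest of the 35 genes here.

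Eif2ak2 had 59.0 and 63.2 CPM in labelled KO at 1%, against 25.9 and 26.4 CPM in wild type (1.19 ± 0.08, adjusted p = 8.0e-11). Ifi27 had 122 and 130.5 CPM in labelled KO, against 65.2 and 61.9 CPM in wild type (0.98 ± 0.07, adjusted p = 2.8e-10). Both differed between the labels by far more than between replicates. Xaf1 (1.08 ± 0.14, adjusted p = 6.8e-07), Rtp4 (1.12 ± 0.14, adjusted p = 6.7e-07), Oasl2 (0.96 ± 0.14, adjusted p = 4.3e-06), Oas1a (0.55 ± 0.13, adjusted p = 0.00052), Stat2 (0.53 ± 0.07, adjusted p = 1.1e-06) and Irf9 (0.41 ± 0.07, adjusted p = 4.1e-05) were also higher. Stat2 and Irf9 had larger log2 fold changes on the rescaled values, 0.81 and 0.69. The ISG15 protease Usp18 was called higher (0.57 ± 0.18, adjusted p = 0.0070), as was Bst2 (0.34 ± 0.08, adjusted p = 0.00093), but without replicate 2 of the KO label their log2 fold changes were 0.30 and 0.19 (adjusted p = 0.18 and 0.055). Ifit3 and Ifi44 were higher from low levels (1.05 ± 0.19, adjusted p = 5.5e-05 and 0.89 ± 0.20, adjusted p = 0.00040), and Ifit3 has a near-identical copy, Ifit3b, between which reads could be split.

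Rsad2 (chr12:26442746-26456452, minus strand) went the other way, with 15.8 and 18.9 CPM in labelled KO at 1%, against 43.3 and 34.6 CPM in wild type (-1.12 ± 0.10, adjusted p = 5.3e-09). Cmpk2 (chr12:26469204-26479837, plus strand) had 2.50 and 3.47 CPM in labelled KO, against 7.14 and 6.42 CPM in wild type (-0.98 ± 0.14, adjusted p = 2.9e-06). Gbp3 (chr3:142560026-142573209, plus strand) had 29.8 and 32.8 CPM in labelled KO, against 57.9 and 61.1 CPM in wild type (-0.91 ± 0.07, adjusted p = 3.1e-10). All 3 were lower without overlap, and they stayed lower on the rescaled values, at -0.85, -0.76 and -0.63. Gbp2 (-0.73 ± 0.06, adjusted p = 1.1e-09, rescaled -0.45), Parp14 (-0.56 ± 0.08, adjusted p = 5.7e-06, rescaled -0.28) and the RNA sensor regulator Dhx58 (-0.59 ± 0.11, adjusted p = 0.00012, rescaled -0.33) were lower by amounts that the scaling changed. Mx1 was lower as well (-0.61 ± 0.15, adjusted p = 0.00079). Ifih1, which fell at 1% in each oxygen comparison, had 15.4 and 17.4 CPM in labelled KO, against 20.3 and 19.0 CPM in wild type (-0.25 ± 0.12, adjusted p = 0.059), and was not called. Lower calls of Dtx3l, Zbp1, Adar and Herc6 were not made under either rescaling, edgeR or DESeq2. Among genes with an ISRE match 8 of 13 were higher and 3 lower. Among those with a window and no match 6 of 13 were higher and 4 lower, where 28.3% of all genes were higher and 49.1% lower. At 1% against 20% oxygen in labelled KO, 4 of 13 with a match rose and 5 fell. Without a match 6 of 13 rose and 7 fell, where 25.2% of all genes rose and 54.7% fell. Between the labels at 20% oxygen, 2 of 13 were higher in each set, and 2 with a match and 0 without were lower. All genes were then 12.9% higher and 9.55% lower. The part of the element was not tested.

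**Figure D4:**
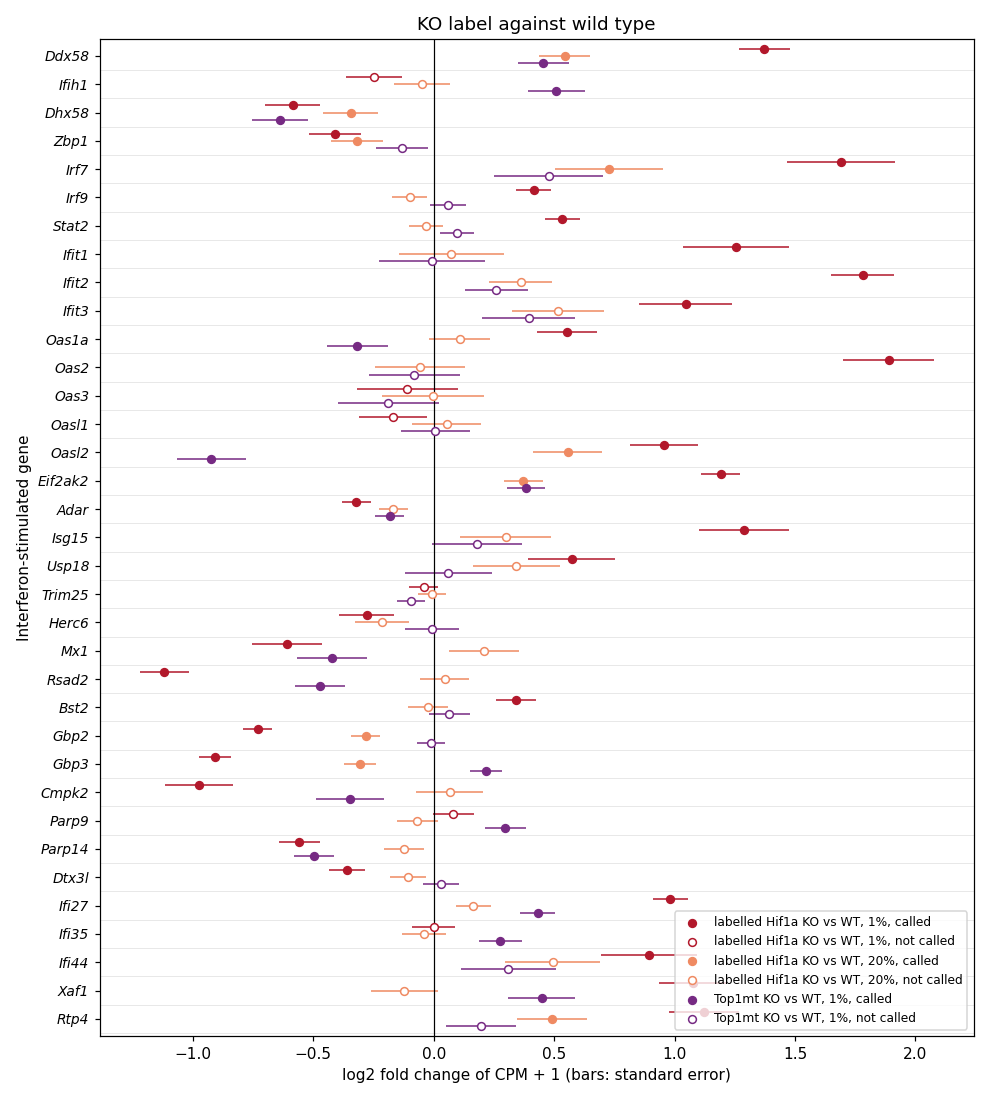
Points are log2 fold changes of CPM + 1 and bars are standard errors for labelled Hif1a KO against wild type at 1% and at 20% oxygen and for Top1mt KO against wild type at 1%, with filled points for called genes. The highest called values are 1.89 for Oas2 in labelled Hif1a KO at 1%, 0.73 for Irf7 at 20% and 0.51 for Ifih1 in Top1mt KO.

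At 20% oxygen the labelled Hif1a KO and wild type cells differed in 9 of these genes. In labelled KO 5 genes were higher, namely Ddx58, Eif2ak2, Irf7, Oasl2 and Rtp4, and 4 were lower, namely Gbp2, Gbp3, Dhx58 and Zbp1, where 12.9% of all genes were higher and 9.55% lower (22.4% in either direction). Ddx58 had 18.6 and 23.3 CPM in labelled KO, against 14 and 14 CPM in wild type (0.54 ± 0.11, adjusted p = 0.0012). Eif2ak2 had 28.7 and 30.2 CPM in labelled KO, against 22.0 and 23.1 CPM in wild type (0.37 ± 0.08, adjusted p = 0.0026). Gbp3 had 83.9 and 86.9 CPM in labelled KO, against 106 and 105 CPM in wild type (-0.31 ± 0.07, adjusted p = 0.0031). These 3 differed without overlap and kept their calls with any 1 library left out. The other 6 did not, and the count of called genes was 4 both without replicate 2 of the KO label and without replicate 1 of wild type, with 2 higher and 2 lower each time. Without replicate 1 of the KO label 8 were higher, and without replicate 2 of wild type 2 were lower. Irf7 had 2.43 and 4.74 CPM in labelled KO, against 1.35 and 2.06 CPM in wild type (0.73 ± 0.22, adjusted p = 0.025), and 0.36 without replicate 2 of the KO label (adjusted p = 0.36). Fibroblast markers were higher in 22 of 24 at this oxygen level too, at 19246 and 22771 CPM in sum in labelled KO, against 13259 and 14325 CPM in wild type. Germ cell genes were lower in 11 of 16 and higher in 0, at 4051 and 3797 CPM in labelled KO, against 4549.7 and 4474 CPM in wild type. The part of these shifts was not tested.

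The difference between the oxygen responses of the labelled Hif1a KO and wild type cells was tested directly. It was called for 21 of the 35 genes, 14 higher and 7 lower in labelled KO, where 19.0% of all genes were higher and 39.0% lower (58.0% in either direction). On rescaled values 19 were higher and 4 lower, and the share of higher genes among all called genes was 61.4%, against 32.8% on CPM. Oas2 differed by 1.94 ± 0.27, adjusted p = 5.6e-06 and Ifit2 by 1.42 ± 0.18, adjusted p = 3.3e-06. Eif2ak2 (0.82 ± 0.11, adjusted p = 6.6e-06) and Ifi27 (0.82 ± 0.10, adjusted p = 2.3e-06) differed by less than 1 on the log2 scale. Rsad2 differed in the other direction (-1.16 ± 0.14, adjusted p = 1.9e-06) and fell at 1% in labelled KO, while it was not called in wild type. Ifih1 fell in both, and the difference was -0.20 ± 0.16, adjusted p = 0.31.

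Top1mt encodes a DNA topoisomerase of mitochondria, and its KO cells were compared with wild type at 1% oxygen alone. In Top1mt KO against Top1mt wild type 8 of the 35 genes were higher and 8 lower, where 25.2% of all genes were higher and 33.2% lower (58.4% in either direction). The median log2 fold change was 0.06 over the 35 genes and -0.04 over all genes. Under both rescalings 8 were higher and 5 lower, with edgeR 9 were higher and 4 lower, and with DESeq2 8 were higher and 4 lower. Log2 fold changes of the called genes ran from -0.92 for Oasl2 to 0.51 for Ifih1. Fibroblast markers summed to 52861 and 51661 CPM in Top1mt KO, against 27463 and 27393 CPM in Top1mt wild type, with 24 of 24 higher, and germ cell genes to 2383 and 2412 CPM, against 3952 and 3835 CPM, with 16 of 16 lower. The part of these shifts was not tested.

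Oasl2 had 27.9 and 27.1 CPM in Top1mt KO, against 55.1 and 51.2 CPM in Top1mt wild type (-0.92 ± 0.14, adjusted p = 1.5e-05), a clear separation. These 2 groups held the highest levels of this gene. Parp14 had 10.8 and 12.4 CPM in Top1mt KO, against 17.2 and 16.3 CPM in wild type (-0.50 ± 0.08, adjusted p = 4.7e-05). Dhx58 had 6.68 and 6.61 CPM in Top1mt KO, against 10.7 and 11.1 CPM in wild type (-0.64 ± 0.11, adjusted p = 8.5e-05). Rsad2 had 20.5 and 18.2 CPM in Top1mt KO, against 27.1 and 27.3 CPM in wild type (-0.47 ± 0.10, adjusted p = 0.00054). Like Oasl2, these 3 were lower without overlap. Ddx58 was higher in Top1mt KO, at 17.8 and 16 CPM, against 12.3 and 11.8 CPM in wild type (0.46 ± 0.11, adjusted p = 0.0011). Ifih1 was higher at 6.87 and 6.77 CPM, against 5.45 and 3.68 CPM (0.51 ± 0.12, adjusted p = 0.00088), with a log2 fold change of 0.28 without replicate 2 of wild type. Eif2ak2 was higher at 31.8 and 31.3 CPM, against 21.9 and 26.2 CPM (0.38 ± 0.08, adjusted p = 0.00041), and Ifi27 at 77.1 and 77.4 CPM, against 57.4 and 56.7 CPM (0.43 ± 0.07, adjusted p = 4.3e-05). Both RNA sensors thus moved in the same direction here. The other 8 calls, for Xaf1, Gbp3, Parp9, Ifi35, Oas1a, Mx1, Adar and Cmpk2, were each lost without 1 or more single libraries, and 10 genes were called without replicate 2 of wild type, 5 in each direction. Without replicate 2 of Top1mt KO 5 were higher, and without replicate 1 of either group 5 were lower.

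The lines were also compared without any KO label. At 1% oxygen, Top1mt wild type against DBA/2 wild type gave 5 genes higher and 17 lower, where 28.9% of all genes were higher and 32.9% lower (61.8% in either direction). The 5 higher calls became 1 without replicate 2 of Top1mt wild type, 2 without replicate 1 of DBA/2 and 3 without either of the other libraries. Those of Irf7, Irf9, Stat2 and Eif2ak2 were each lost without 1 or more single libraries. Ifih1 had 5.45 and 3.68 CPM in Top1mt wild type, against 16.8 and 18.7 CPM in DBA/2 (-1.77 ± 0.12, adjusted p = 2.5e-10). Rsad2 had 27.1 and 27.3 CPM in Top1mt wild type, against 61.7 and 71.7 CPM in DBA/2 (-1.26 ± 0.10, adjusted p = 3.7e-09). Oasl2 was higher, at 55.1 and 51.2 CPM in Top1mt wild type, against 15.6 and 19.3 CPM in DBA/2 (1.56 ± 0.14, adjusted p = 1.8e-08). These lines stood apart in all 3 genes. At 20% oxygen, Hif1a wild type against DBA/2 gave 7 higher and 7 lower, where 26.4% of all genes were higher and 22.6% lower (48.9% in either direction). The smallest adjusted p there belonged to Stat2, with 44.3 and 42.2 CPM in Hif1a wild type, against 60.2 and 59.9 CPM in DBA/2 (-0.47 ± 0.07, adjusted p = 2.6e-05). Ifih1 and Parp14 were also lower (-0.40 ± 0.12, adjusted p = 0.0077 and -0.46 ± 0.08, adjusted p = 0.00015), and the Ifih1 call was lost without replicate 2 of either group. Cell type markers differed between the lines as well. At 1% oxygen, fibroblast markers summed to 27463 and 27393 CPM in Top1mt wild type, against 8868 and 7939.9 CPM in DBA/2, with 22 of 24 higher and 2 lower, and germ cell genes to 3952 and 3835 CPM, against 4777 and 4745 CPM, with 3 of 16 higher and 7 lower. At 20% oxygen, fibroblast markers summed to 13259 and 14325 CPM in Hif1a wild type, against 9919.9 and 7906 CPM in DBA/2, with 16 of 24 higher and 1 lower, and germ cell genes to 4549.7 and 4474 CPM, against 5476 and 5658 CPM, with 1 of 16 higher and 13 lower. Their part in the differences between lines was not tested. Strain background, any sequencing set and, at 1%, any difference in treatment time cannot be told apart in these differences.

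Genes upstream of this response were measured in the same libraries, and are described by lists put together with earlier results of these data known. Of 21 interferon ligand genes in the table, 10 had any read, the 16 libraries held 36 such reads in all, from 0 to 6 per library, and no ligand had more than 3 reads in a library. Interferon RNA was thus at or near the limit that a count of 0 allows, 3 reads or 0.117 to 0.251 CPM. Of 10 signalling factors outside the 35 genes (kinases and transcription factors of the pathway), 8 fell and 0 rose at 1% in DBA/2, 5 fell and 2 rose in Hif1a wild type, and 7 fell and 1 rose in labelled Hif1a KO. The shares of all genes that fell were 25.5%, 34.6% and 54.7% in these comparisons, and 31.8%, 18.4% and 25.2% rose. Irf2, a factor that can repress these genes, fell in DBA/2 to 15.6 and 12.2 CPM at 1%, against 38.6 and 37.3 CPM at 20% (-1.40 ± 0.11, adjusted p = 3.3e-09).

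For the lists that follow, the shares of all genes tested were 28.3% higher and 49.1% lower in labelled Hif1a KO against wild type at 1%, and 25.2% higher and 33.2% lower in Top1mt KO against wild type. In labelled Hif1a KO at 1%, 1 of the 10 factors was higher and 5 were lower, among them Irf8 (-1.09 ± 0.07, adjusted p = 2.5e-11). The type I receptor chain Ifnar1 was lower, with 146 and 147 CPM in labelled KO, against 224 and 205 CPM in wild type (-0.54 ± 0.05, adjusted p = 5.3e-09, rescaled -0.26). Ifnar2, the other chain of that receptor, was higher (0.40 ± 0.08, adjusted p = 0.00018). Of 12 tested genes for nucleic acid sensing and its adaptors, 7 were higher and 5 lower. Sting (Tmem173), the adaptor of DNA sensing, had 22.4 and 22.0 CPM in labelled KO, against 6.05 and 6.48 CPM in wild type (1.68 ± 0.15, adjusted p = 3.5e-09). It was also higher in Top1mt KO, at 14.6 and 13.3 CPM, against 3.70 and 3.42 CPM in Top1mt wild type (1.71 ± 0.15, adjusted p = 1.0e-08). The groups did not overlap in either line. All 24 fibroblast markers were higher and all 16 germ cell genes lower in both comparisons, and their part in these values was not tested. Of 6 interferon receptor chains, 4 were higher and 2 lower in labelled Hif1a KO at 1%, and 1 was higher and 1 lower in Top1mt KO. Of 8 feedback inhibitors outside the 35 genes, 2 were higher and 3 lower in labelled Hif1a KO at 1%, and 1 was higher and 4 lower in Top1mt KO.

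A further list of 52 interferon-stimulated genes outside the 35 had 45 tested. At 1% against 20% oxygen, 26 of the 45 fell and 2 rose in DBA/2, 20 fell and 10 rose in Hif1a wild type, and 19 fell and 19 rose in labelled Hif1a KO. The shares of all genes that fell were 25.5%, 34.6% and 54.7% in these 3 comparisons, and 31.8%, 18.4% and 25.2% rose. In labelled Hif1a KO against wild type at 1%, 22 rose and 15 fell, where 28.3% of all genes were higher and 49.1% lower. In Top1mt KO against wild type 20 rose and 7 fell, where 25.2% of all genes were higher and 33.2% lower. The median log2 fold change of the 45 was -0.34 in DBA/2, -0.16 in Hif1a wild type and -0.02 in labelled Hif1a KO for 1% against 20% oxygen, where the medians of all genes were 0.04, -0.09 and -0.29. It was 0.32 in labelled Hif1a KO against wild type at 1% and 0.23 in Top1mt KO against wild type, where the medians of all genes were -0.21 and -0.04. Of 15 tested GTPases and other targets of interferon gamma, 4 were higher and 6 lower in labelled Hif1a KO at 1%, and 3 were higher and 0 lower in Top1mt KO. B2m, the light chain of class I major histocompatibility proteins, had 372 and 364 CPM in labelled Hif1a KO at 1%, against 123 and 126 CPM in wild type (1.56 ± 0.07, adjusted p = 5.8e-13). In Top1mt KO it had 265 and 249.7 CPM, against 168 and 153 CPM in Top1mt wild type (0.68 ± 0.07, adjusted p = 5.0e-08). Both differences were without overlap. The part of the fibroblast and germ cell shifts in them and in the values below was not tested. Among the genes that fell in DBA/2 was Psmb8, a subunit of the immunoproteasome, with 18.3 and 17.6 CPM at 1%, against 43.5 and 40.1 CPM at 20% (-1.17 ± 0.10, adjusted p = 5.7e-09). Slfn5 rose at 1% in Hif1a wild type (1.80 ± 0.16, adjusted p = 1.6e-08) and in labelled Hif1a KO (2.86 ± 0.16, adjusted p = 2.9e-12). The nucleotide hydrolase Samhd1 fell in labelled Hif1a KO (-1.08 ± 0.06, adjusted p = 2.2e-12, rescaled -0.72), and it was also lower in Top1mt KO than in Top1mt wild type (-1.02 ± 0.06, adjusted p = 3.6e-11).

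Leukocytes are another source of interferon-stimulated RNA, and their markers were detected at levels that differed between groups. Summed over 14 markers, the labelled Hif1a KO libraries held 44.3 and 56.5 CPM at 1%, against 28.0 and 32.5 CPM in Hif1a wild type. At 20% they held 19.3 and 30.8 CPM in labelled KO, against 21.0 and 26.4 CPM in wild type. The sums were 32.6 and 30.2 CPM in Top1mt KO, against 29.6 and 27.4 CPM in Top1mt wild type, and 26.2 and 25.7 CPM in DBA/2 at 1%, against 35.2 and 28.5 CPM at 20%. Ptprc, the pan-leukocyte marker, averaged 0.360 to 2.82 CPM per group, and Tyrobp at most 0.355 CPM and 0 in both DBA/2 libraries at 1%. The highest means belonged to Lyz2, at 3.33 to 17.9 CPM per group, Cd68 at 5.62 to 13.7 CPM, Cd14 at 1.85 to 6.14 CPM and Cd3e at 0.572 to 5.57 CPM. Lyz2 and Cd14 were highest in labelled Hif1a KO at 1%. Of the 24 fibroblast markers and 16 germ cell genes none was at 0 in any group, so markers of both cell types named by the labels were detected. Of 10 markers of other testis cells 5 were tested, and 2 were higher and 2 lower in labelled Hif1a KO at 1% against wild type. The part of leukocytes and of other testis cells in the results was not tested.

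**Figure D5:**
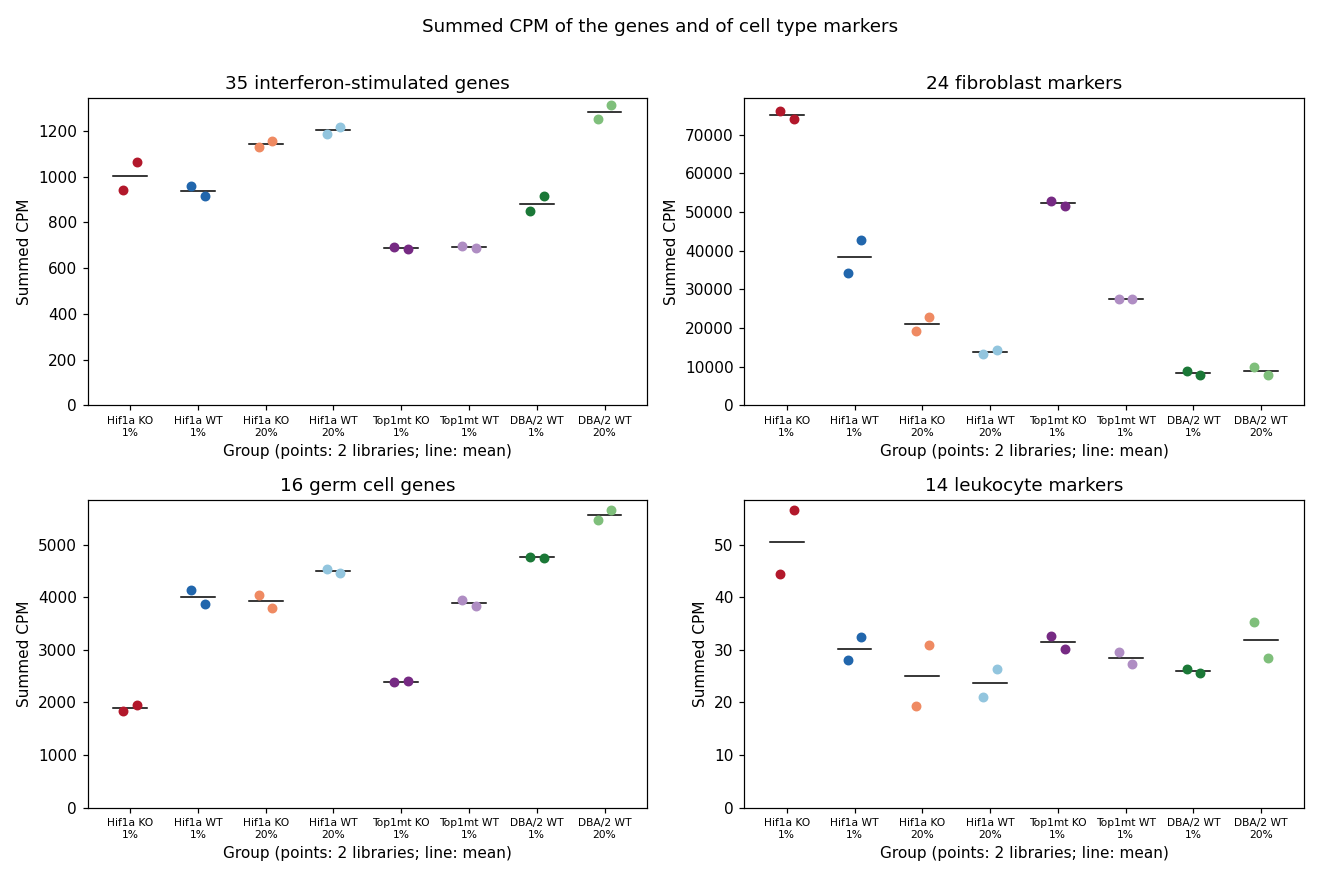
Points are summed CPM in single libraries and lines are group means for the 35 genes, 24 fibroblast markers, 16 germ cell genes and 14 leukocyte markers, with vertical axes from 0. On CPM the 3 groups at 20% lie highest for the 35 genes, though labelled Hif1a KO at 1% lies above its group at 20% after either rescaling, whereas fibroblast markers are highest in labelled Hif1a KO at 1% and in Top1mt KO. The Top1mt line was measured at 1% alone.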

How the data were processed

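RNA from GS cultures was turned into stranded mRNA libraries from 200 ng of total RNA, per the labels' protocols. The authors deposited 1 table of CPM, read counts scaled to a common library total, for protein-coding genes. The submitters' processing notes name cutadapt 1.16, STAR 2.6.0c, HTSeq 0.11.2, DESeq2 1.22.2 and the build mm10; the annotation, the strand setting and any filters are not given in the sources used here. CPM columns summed to 1000000 and all values above 0 were whole multiples of 1 read within a tolerance of 0.01 reads (100%), so reads were recovered for the count tests. Each CPM value scales with the total of its library, so genes that take a larger share lower all others.

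Libraries were grouped by the labels. The 35 genes and the other lists were chosen with earlier results of these data known. log2(CPM + 1) of the 14841 genes with at least 1 CPM in at least 2 of 16 libraries was fitted with limma 3.58.1 in R 4.3.3, 1 mean per group, with an intensity trend, and p-values were Benjamini-Hochberg adjusted over all 14841 at 0.05. Alternatives were CPM rescaled by median-of-ratios or TMM factors, edgeR 4.0.16 (quasi-likelihood) and DESeq2 1.42.0 on the recovered reads, a pseudocount of 0.1, no filter, the compared groups alone, no trend, a replicate block and each library left out. edgeR called 11 to 28 of the 35 genes, depending on the comparison. Members of the 35 with full statistics were those called with a mean of at least 5 CPM in a compared group, in order of adjusted p, up to 20; from other lists up to 4 genes with the smallest adjusted p. Values of further genes, such as those not called, were added for contrast after they were seen. Replicates of a group differed by more than sampling noise, with chi-square per gene of 1.79 to 7.60 over genes of at least 20 reads. A count of 0 allows up to 3 reads, 0.117 to 0.251 CPM, which covers counting error only. Gene positions are from GENCODE M21. The scripts were tested on simulated data. Figures were drawn with matplotlib 3.10.9.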

Additional observations from a re-analysis of the deposited data

Results flagged for a closer look

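With 2 libraries a group, no library could be tested as standing apart from its group. Oxygen responses that differed between cells labelled Hif1a KO and Hif1a wild type, by a test of the difference itself, had their smallest adjusted p-values for 5 genes. The difference of log2 fold changes was -1.16 ± 0.14, adjusted p = 1.9e-06 for Rsad2, 0.82 ± 0.10, adjusted p = 2.3e-06 for Ifi27, 1.42 ± 0.18, adjusted p = 3.3e-06 for Ifit2, 1.94 ± 0.27, adjusted p = 5.6e-06 for Oas2 and 0.82 ± 0.11, adjusted p = 6.6e-06 for Eif2ak2. At 1% against 20% oxygen, Rsad2 had a log2 fold change of -1.36 in labelled KO and -0.20 in wild type. Ifit2 had 1.03 in labelled KO and -0.39 in wild type, and the wild type call was lost without 3 of the 4 single libraries. Ifi27 had 0.91 in labelled KO and 0.09 in wild type, Oas2 had 2.26 and 0.31, and Eif2ak2 had 1.03 and 0.21.

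Between the wild type lines, Hif1a wild type minus DBA/2, the difference of oxygen responses was 1.17 ± 0.12, adjusted p = 2.6e-07 for Parp14, 0.55 ± 0.08, adjusted p = 3.5e-05 for Gbp2, 0.63 ± 0.10, adjusted p = 5.5e-05 for Stat2, -1.04 ± 0.20, adjusted p = 0.00034 for Oasl2 and -0.94 ± 0.20, adjusted p = 0.00073 for Cmpk2. Cmpk2 had a log2 fold change of -0.05 in Hif1a wild type and 0.89 in DBA/2, and Stat2 had -0.10 and -0.73. Fibroblast and germ cell markers moved with oxygen in the Hif1a line as given above, and their part in these differences was not tested.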

How the results depend on the processing

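Of 186 calls of the 35 genes over 10 comparisons, 120 were kept under every setting tried. Of 2546 values under another setting, 2263 stayed on the same side of the threshold, 274 lost the call and 9 reversed. The reversals were all under another scaling or count test. For labelled Hif1a KO at 1% against 20%, Trim25 was 0.23 with median-of-ratios factors, 0.19 with TMM factors, 0.19 with edgeR and 0.23 with DESeq2, and Herc6 was 0.059 with median-of-ratios factors, 0.022 with TMM factors and 0.045 with DESeq2. The difference of responses of Dtx3l, labelled Hif1a KO minus wild type, was 0.013 with median-of-ratios factors and 0.025 with DESeq2. These scalings moved the median log2 fold change of all genes by over 0.1, for median-of-ratios factors to 0.02 for labelled Hif1a KO with oxygen (-0.29 on CPM), 0.03 against wild type at 1% (-0.21) and 0.07 for the difference of responses (-0.17).

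The count of called genes left the range within 1.5 times of its value only with single libraries left out: labelled Hif1a KO against wild type at 20% gave 4 to 11 (9 with all), and Top1mt KO gave 10 to 13 (16 with all). With a library left out, the remaining library of its group is assumed to vary like the other groups. The cause of these shifts was not tested. No label states whether same-numbered replicates share an origin, and the main fit did not pair them. Their deviations correlated between -0.08 and 0.15, the highest for DBA/2 at 1% against 20% oxygen. With a replicate block within each line, the counts with oxygen were 29 in labelled Hif1a KO (28 without the block), 17 in Hif1a wild type (17) and 20 in DBA/2 (19). For labelled Hif1a KO against wild type they were 30 at 1% (29), 12 at 20% (9) and 21 for the difference of responses (21). They were 17 in Top1mt KO (16), 12 for the difference of responses between wild type lines (11), 12 for Hif1a wild type against DBA/2 (14) and 18 for Top1mt wild type against DBA/2 (22). Low genes such as Oas2 and Ifit3, with group means down to 0.202 and 0.369 CPM, are limited by depth.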
